A study of Homo sapiens with 36 samples.

Results

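The cells described here were 2102EP-C1 cells in which KDM6A and KDM6B had been knocked down together (sh6A + 6B), compared with and without cisplatin. 2102EP-C1 is a single cisplatin-resistant clone of 2102EP, an established embryonal carcinoma line from a testicular germ cell tumor (TGCT). The members were chosen by their labels alone: 3 untreated and 3 cisplatin-treated sh6A + 6B libraries, 6 of the 36 samples in the series, read over all 16459 genes of the knockdown table. Both groups carried 1 lentiviral hairpin against KDM6A in pLKO.1-Neo and 1 against KDM6B in pLKO.1-puro, and both had been selected with puromycin and neomycin. The treated group received cisplatin at 0.5 µM for 6 h and was harvested 24 h later, and the untreated group received vehicle. Cells with the empty pLKO.1 vectors, 3 untreated and 3 treated in the same way, and untransduced 2102EP-C1 cells, again 3 and 3, were used for comparison. Because each target was hit with 1 hairpin in 1 clone, an effect of the knockdown and an effect of the particular hairpins or selection cannot be told apart in these libraries.

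KDM6A and KDM6B are demethylases that remove the repressive mark H3K27me3, which the polycomb complex PRC2 writes through EZH2. Cisplatin crosslinks DNA, and in TGCT cells, which usually keep wild-type p53, the damage stabilizes p53 and switches on its target genes for cell-cycle arrest, apoptosis, repair and metabolism. The comparison asks which genes respond to cisplatin once both demethylases have been reduced in a clone that resists the drug.

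The libraries held 79382033 to 94476254 reads on genes in the 6 sh6A + 6B samples and up to 100872653 over all 12 samples of the knockdown experiment, and no library stood apart. Distances between sh6A + 6B replicates on the log2 scale were 0.563 to 0.598, and those from cisplatin-treated to untreated libraries were 0.715 to 0.744. The labels give the tissue as testis, but the cells carried the transcripts of embryonal carcinoma. Of 22 listed pluripotency and embryonal carcinoma markers, 21 were measured, with a summed level of 11559 to 11747 CPM (read counts scaled to a common library size) in untreated and 11098 to 11108 in treated cells, and POU5F1 stood between 9.25 and 9.31 log2 CPM in all 6. The 3 measured markers of testis somatic cells summed to 4.57 to 5.02 CPM, and INSL3, CYP17A1, DHH and HSD17B3 were not in the table.

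The knockdown itself was checked first. KDM6A was at 7.16, 7.17 and 7.15 log2 CPM in untreated pLKO.1 cells and at 6.14, 6.09 and 6.2 in untreated sh6A + 6B cells, a difference of -1.01 ± 0.03 (log2, SE, n = 3 each; limma adjusted p = 2.13e-18). KDM6B was at 4.61, 4.66 and 4.63 against 3.51, 3.61 and 3.75, a difference of -1.01 ± 0.05 (adjusted p = 1.78e-14). All sh6A + 6B libraries lay below all pLKO.1 libraries for both targets, and both transcripts remained readily detected. Under cisplatin KDM6A read 6.28, 6.27 and 6.38 and KDM6B 3.38, 3.43 and 3.54 in the knockdown cells, changes of 0.16 and -0.17 that were both under the fold limit used here.

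With cisplatin 579 of the 16459 genes (3.52%) changed in sh6A + 6B cells, of which 408 (2.48% of those tested) rose and 171 (1.04%) fell, at a limma adjusted p under 0.05 and a fold change over 1.3. Most of these changes were small: the median absolute log2 change was 0.50 among the genes that rose and 0.46 among those that fell. Many of the genes were scarce, and 142 of those that rose and 77 of those that fell had a mean of at least 1 log2 CPM. Without the fold limit 7369 genes (44.8%) passed the adjusted p alone, 3640 higher and 3729 lower, and at 49.3% of all genes the treated and untreated libraries did not overlap. A gene that merely differed between the groups was therefore the common case at this depth, and the fold limit did most of the selecting. The labels do not say that the triplicates were separate cultures, so the p-values measure a spread between samples only. That spread was pooled with the pLKO.1 libraries, since the fit used every library of the knockdown experiment. In sh6A + 6B libraries the median variance was 1.84 times (untreated) and 1.74 times (cisplatin) what counting alone gives. In pLKO.1 libraries it was 1.13 and 1.32 times, so the pooled errors may understate the spread of the sh6A + 6B libraries. A fit to the sh6A + 6B libraries alone called 559 genes.

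**Figure D1:**
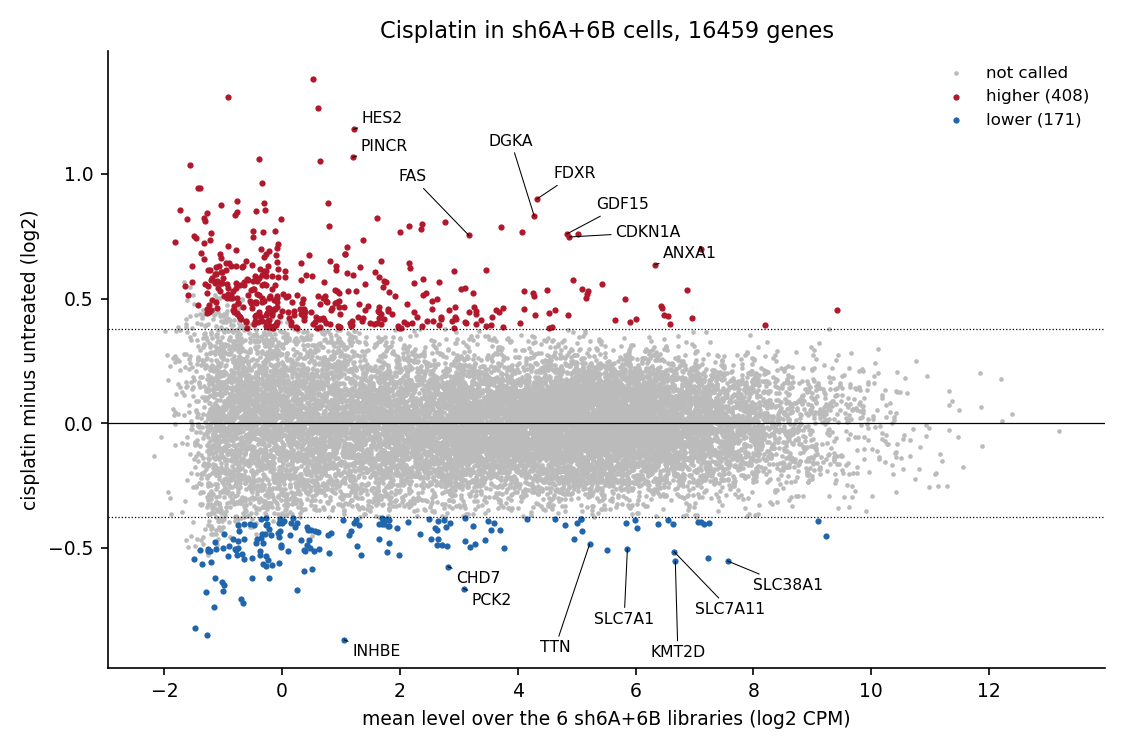
Change under cisplatin (y axis, cisplatin minus untreated, log2) against mean level over the 6 sh6A + 6B libraries (x axis, log2 CPM), 1 point per gene for 16459 genes. Red points are the 408 genes that rose, blue points the 171 that fell, and dotted lines mark the 1.3-fold limit; p53 targets such as FDXR, CDKN1A and GDF15 stand above the cloud at moderate levels, while INHBE and PCK2 lie farthest below it among the genes labelled.

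Among genes averaging 1 log2 CPM or more, the largest rise was in HES2, a repressor of the Hairy and Enhancer of Split family. HES2 (chromosome 1, 6415232 to 6419919, GRCh38.p14) read 0.51, 0.68 and 0.68 log2 CPM in untreated cells and 1.68, 1.90 and 1.82 after cisplatin, a change of 1.18 ± 0.09 (2.26-fold, adjusted p = 1.35e-10). The long noncoding RNA PINCR (chromosome X, 43176994 to 43226598), known as a p53-induced transcript, read 0.60, 0.78 and 0.60 against 1.65, 1.74 and 1.79, a change of 1.07 ± 0.09. For both genes every treated library lay above every untreated one, on 124 to 135 reads each in untreated and 274 to 323 in treated cells. The next rises were in FDXR at 0.90, DGKA, a diacylglycerol kinase, at 0.83, TNFSF8, the ligand of the embryonal carcinoma marker CD30, at 0.82, CLCA2 at 0.81, ACTA2, smooth muscle actin, at 0.80, DNAI3 at 0.79, BTG2 at 0.79 and NECTIN4, an adhesion protein, at 0.78. ACTA2 overlaps FAS on chromosome 10 (88935074 to 88991337 and 88964050 to 89017059), and since the strand setting used in counting is not given in the sources used here, reads may be shared between these genes. DGKA likewise overlaps PYM1.

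The genes of the p53 pathway carried the clearest shared rise. Of 64 listed p53 regulators and targets 62 were measured, and 18 rose while none fell, against 2.48% and 1.04% of all genes. Their median change was 0.26, compared with 0.00 over all genes, and 59 of the 62 were higher after cisplatin. With the adjusted p alone, 49 were higher and 2 lower, the latter including the p53 inhibitor MDM4 at -0.10. The median was 0.24 once a trend with transcript length and GC content, described further on, had been removed, and 17 genes then passed.

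The cell-cycle arrest genes moved most. Of 7 such targets 5 rose, with a median change of 0.64. CDKN1A (chromosome 6, 36676463 to 36687332), which encodes the CDK inhibitor p21, read 4.45, 4.57 and 4.49 log2 CPM in untreated cells and 5.20, 5.26 and 5.29 after cisplatin, a change of 0.75 ± 0.03 (1.68-fold, adjusted p = 5.56e-14). BTG2, an antiproliferative protein, went from 3.33, 3.35 and 3.28 to 4.08, 4.1 and 4.14, a change of 0.79 ± 0.04. The stress kinase PLK2 went from 4.63, 4.67 and 4.62 to 5.4, 5.39 and 5.41, a change of 0.76 ± 0.03. In none of these did the groups come near each other. SFN, the checkpoint protein 14-3-3 sigma, rose by 0.64 ± 0.06 and PLK3 by 0.40, whereas GADD45A (0.28) stayed under the fold limit and E2F7 (0.04) did not pass the test.

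The death receptors and the mitochondrial apoptosis genes moved less evenly. FAS, the receptor that starts extrinsic apoptosis, read 2.74, 2.92 and 2.73 in untreated and 3.60, 3.49 and 3.55 in treated cells, a change of 0.75 ± 0.06 with no overlap. The decoy receptor TNFRSF10C rose by 0.40 ± 0.07, just over the limit, and was under it without untreated replicate 3 (0.35), without cisplatin replicate 1 (0.38) or with the length and GC trend removed (0.37). The other death receptor genes measured were at 0.05 to 0.34. Of 8 targets acting at mitochondria only PMAIP1, the BH3-only protein NOXA, rose, from 6.28, 6.12 and 6.18 to 6.71, 6.59 and 6.69, a change of 0.47 ± 0.04. BBC3, which encodes PUMA, was at 0.27, BAX, the pore former, at 0.05 and AEN at -0.01, so the response within this list was not uniform. PMAIP1 was at 0.32, under the fold limit, after removal of the length and GC trend.

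Metabolic, repair and feedback targets followed the arrest genes. FDXR (chromosome 17, 74862497 to 74872994), the mitochondrial ferredoxin reductase, went from 3.85, 3.92 and 3.85 to 4.77, 4.76 and 4.79, a change of 0.90 ± 0.03 (1.87-fold, adjusted p = 9.33e-16). The autophagy regulator DRAM1 rose by 0.57 ± 0.03, the stress protein SESN1 by 0.42 ± 0.02 and the ceramidase ACER2 by 0.39 ± 0.05, and all 14 genes of the metabolic list were higher after cisplatin. ACER2 was under the fold limit without cisplatin replicate 3 (0.33) and without untreated replicate 2 (0.37), and with the length and GC trend removed (0.36). Of 6 repair targets DDB2, which recognizes damaged DNA, rose by 0.53 ± 0.03, while RRM2B (0.33), PCNA (0.31) and the translesion polymerase POLH (0.28) passed the adjusted p only. Of the feedback genes, the phosphatase PPM1D rose by 0.43 ± 0.03, and MDM2, the ubiquitin ligase that degrades p53, was at 0.38, immediately below the limit. Among 11 secreted and surface targets EPS8L2 rose by 0.77 ± 0.03, the cytokine GDF15 by 0.76 ± 0.04 and the KIT ligand KITLG by 0.56 ± 0.05, and all 11 were higher.

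**Figure D2:**
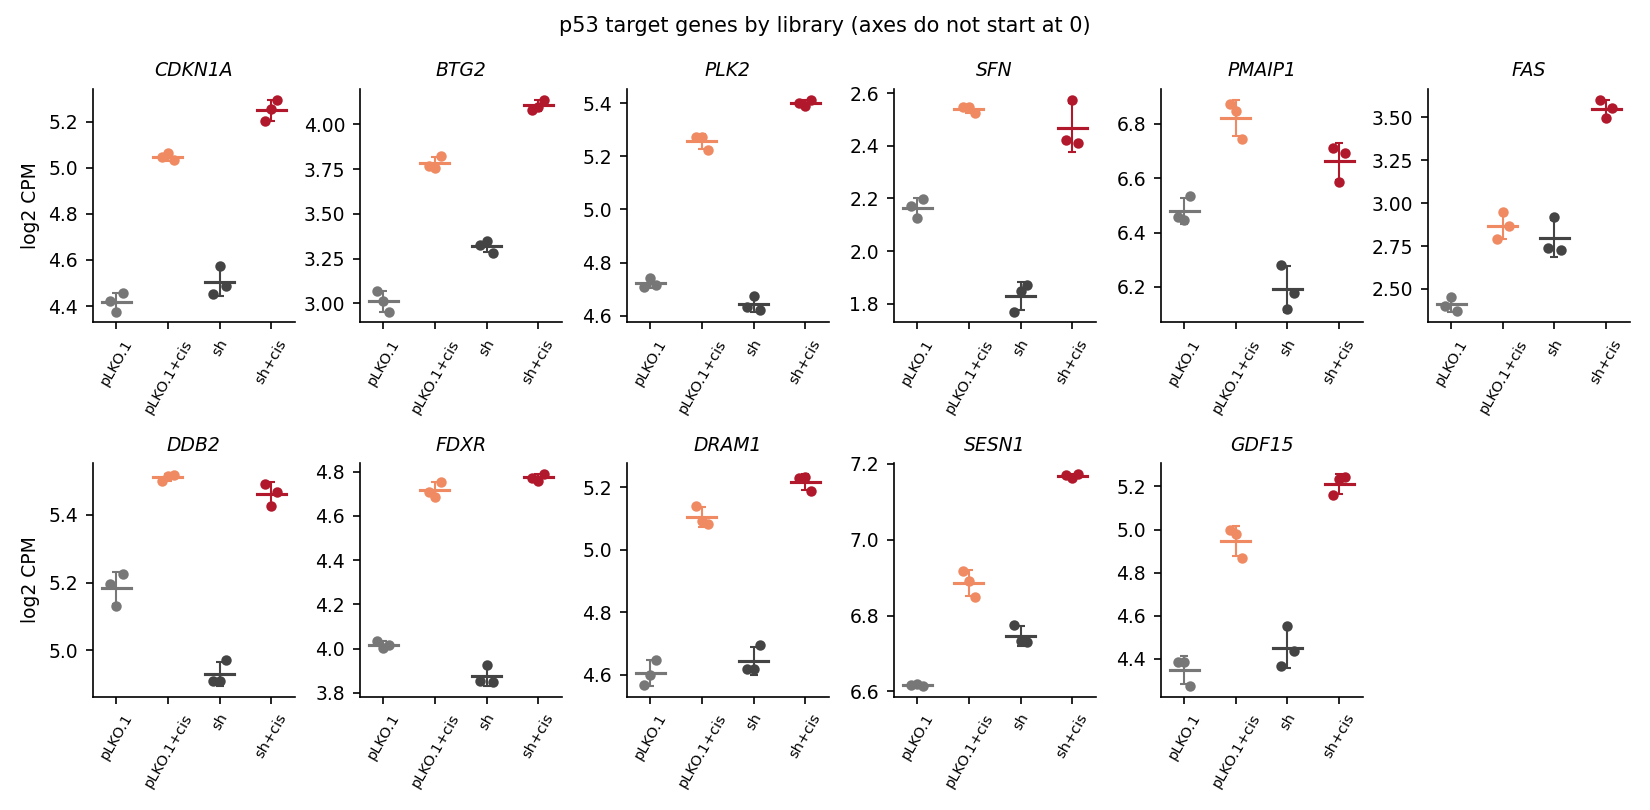
Levels of p53 targets (log2 CPM, axes not from 0) in each library of pLKO.1 and sh6A + 6B (sh) cells, untreated or with cisplatin (cis). Points are libraries, horizontal lines group means and bars ± 1 SD (n = 3 each); in sh6A + 6B cells every treated library lies above every untreated one for each gene drawn, as with FDXR at 4.76 to 4.79 against 3.85 to 3.92.

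The p53 response element, 2 copies of a decamer whose core reads CNNG, was looked for in the RefSeq promoters (250 bases before to 50 after the gene start, GRCh38.p14), because the p53 targets moved together. A match had the decamers side by side with both cores kept and at most 2 mismatches over 20 bases, and the consensus reads the same on either strand. Such a match was found in 31 of 12530 promoters of tested genes (0.247%), in 3 of the 48 p53-list genes with a promoter (6.25%), in 3 of 268 genes that rose (1.12%) and in 0 of 115 genes that fell. The matches in p53-list genes and in genes that rose are printed 5′ to 3′ on the strand of the gene, with the matched 20 bases in capitals.
ACTA2 (chr10:88991304-88991333, minus strand): tggctTGGCTTGTCAGGGCTTGTCCaggag
CXCR2 (chr2:218125938-218125967, plus strand): actgcGTGCGAGTTCAGACAAGTCCgttgg
SIGLEC14 (chr19:51647004-51647033, minus strand): tagacTTACAAGTCTGGACAAGCCCctctg
GPX1 (chr3:49358516-49358545, minus strand): tgcctGGGCCAGACCAGACATGCCTgctgc
GLS2 (chr12:56488112-56488137, minus strand): gccggAGGCTTGCTGGGGCATGCGCt
AEN (chr15:88621301-88621330, plus strand): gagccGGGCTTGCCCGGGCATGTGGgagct
All of these carried 2 mismatches. ACTA2 rose by 0.80, the chemokine receptor CXCR2 by 0.61 and SIGLEC14 by 0.49, the antioxidant enzyme GPX1 (0.31) and the glutaminase GLS2 (0.30) passed the adjusted p only, and AEN was at -0.01 (adjusted p = 0.853). A match and a rise therefore did not always go together, and a promoter without one may hold the element outside this window or with a spacer. CXCR2 and SIGLEC14 are named for their matches, after their values were seen.

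The largest fall among genes averaging 1 log2 CPM or more was in INHBE, an inhibin subunit induced by the transcription factor ATF4. INHBE (chromosome 12, 57455307 to 57458025) read 1.48, 1.55 and 1.42 log2 CPM in untreated cells and 0.64, 0.56 and 0.64 after cisplatin, a change of -0.87 ± 0.09 (0.547-fold, adjusted p = 4.56e-08). PCK2, the mitochondrial phosphoenolpyruvate carboxykinase, went from 3.27, 3.49 and 3.47 to 2.68, 2.75 and 2.81, a change of -0.66 ± 0.05. The treated libraries lay below the untreated ones for both, although PCK2 overlaps NRL in the annotation. The 10 largest falls also held 3 amino acid transporters. SLC38A1, which carries neutral amino acids, went from 7.88, 7.83 and 7.81 to 7.28, 7.29 and 7.28 (-0.55 ± 0.02). SLC7A11, the cystine importer, went from 7.0, 6.86 and 6.88 to 6.44, 6.34 and 6.41 (-0.52 ± 0.03), and SLC7A1, which carries cationic amino acids, from 6.10, 6.16 and 6.09 to 5.59, 5.64 and 5.6 (-0.50 ± 0.02). All of these were still called lower after removal of the length and GC trend, at -0.86 for INHBE, -0.65 for PCK2, -0.52 for SLC38A1, -0.50 for SLC7A11 and -0.39 for SLC7A1.

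The list for the integrated stress response, the program in which ATF4 raises amino acid synthesis and import, had a median below 0. Of its 20 genes 2 fell, SLC7A11 and the glutathione-degrading enzyme CHAC1 (-0.52 ± 0.11), and none rose, against 1.04% and 2.48% of all genes, with a median of -0.21. Without the fold limit 14 were lower, against 22.7% of all genes, among them SLC7A5 at -0.37, TRIB3 at -0.24 and PHGDH at -0.23, and 2 were higher, DDIT4 at 0.18 and ATF3 at 0.26, against 22.1%, both of which p53 can also induce. ATF4 mRNA was at -0.04 and did not pass the test, and ASNS, at -0.46, did not pass it either. The median was -0.22 after removal of the length and GC trend, with 3 genes called lower.

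Other named falls were in DDR2, a collagen receptor (2.14, 2.08 and 1.92 to 1.41, 1.5 and 1.67), in HMGN5, a nucleosome-binding protein (5.99, 5.6 and 5.71 to 5.28, 5.08 and 5.41), and in ZSWIM9 (1.58, 1.45 and 1.80 to 1.14, 1.1 and 1.0). HMGN5 was the most variable of these between replicates, with SDs of 0.20 and 0.17 against a change of -0.51. Of 12 BCL2 family genes outside the p53 list, 2 fell: the BH3-only gene HRK by 0.59 ± 0.10 on the log2 scale and the survival gene BCL2 by 0.43 ± 0.10, both on low counts of 89 to 156 reads per library.

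Most chromatin regulators were lower after cisplatin, by small amounts. Of 159 listed genes of the lysine demethylase, lysine methyltransferase, CHD remodeler, SWI/SNF, acetyltransferase and BET, deacetylase and NuRD, polycomb and DNA methylation groups, 156 were measured. None rose and 4 fell, against 1.04% of all genes, 123 were lower and 33 higher, and the median was -0.13 compared with 0.00 over all genes. With the adjusted p alone 100 were lower and 15 higher, against 22.7% and 22.1% of all genes. The study had drawn attention to chromatin genes on these same libraries, so the list is not independent evidence of its direction.

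CHD7, a remodeler mutated in CHARGE syndrome, read 3.08, 3.12 and 3.12 log2 CPM in untreated and 2.61, 2.52 and 2.45 in treated cells, a change of -0.58 ± 0.05 (adjusted p = 7.7e-09). KMT2D (chromosome 12, 49018978 to 49060794), an H3K4 methyltransferase of the complex that also holds KDM6A, went from 6.91, 6.97 and 6.97 to 6.31, 6.41 and 6.47, a change of -0.55 ± 0.03 (adjusted p = 9.57e-13). The SWI/SNF subunit ARID1A went from 6.85, 6.85 and 6.83 to 6.42, 6.43 and 6.48 (-0.40 ± 0.02). The acetyltransferase CREBBP went from 7.42, 7.46 and 7.45 to 7.0, 7.04 and 7.08 (-0.40 ± 0.02), and its relative EP300, at -0.35, was under the limit. For each of the 4 called genes all treated libraries lay below all untreated ones. CHD7 alone was still called after removal of the length and GC trend, at -0.45, with KMT2D at -0.31, ARID1A at -0.25 and CREBBP at -0.23.

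The families differed in how far they lay from 0. All 10 CHD genes were lower, with a median of -0.21, and so were 25 of 29 methyltransferases, with a median of -0.16, including KMT2A at -0.36 and the H3K79 methyltransferase DOT1L at -0.27. The 9 genes of DNA methylation had a median of -0.18, with DNMT3B, the embryonic de novo methyltransferase, at -0.20 ± 0.01 and DNMT1 at -0.19 ± 0.02. Medians were -0.14 for 27 polycomb genes, -0.13 for 13 acetyltransferase and BET genes, and -0.11 for each of the SWI/SNF, deacetylase and demethylase lists. Within polycomb, the accessory subunit JARID2 was at -0.23 and PHC1 at -0.21, while the catalytic EZH2 was at 0.04 and EED at 0.01, neither passing the test. SMARCA4, the SWI/SNF ATPase, was at -0.32 ± 0.02, past the adjusted p and under the fold limit. Among 20 demethylases none was called, with PHF2 lowest at -0.24 and the knocked-down KDM6A highest at 0.16.

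**Figure D3:**
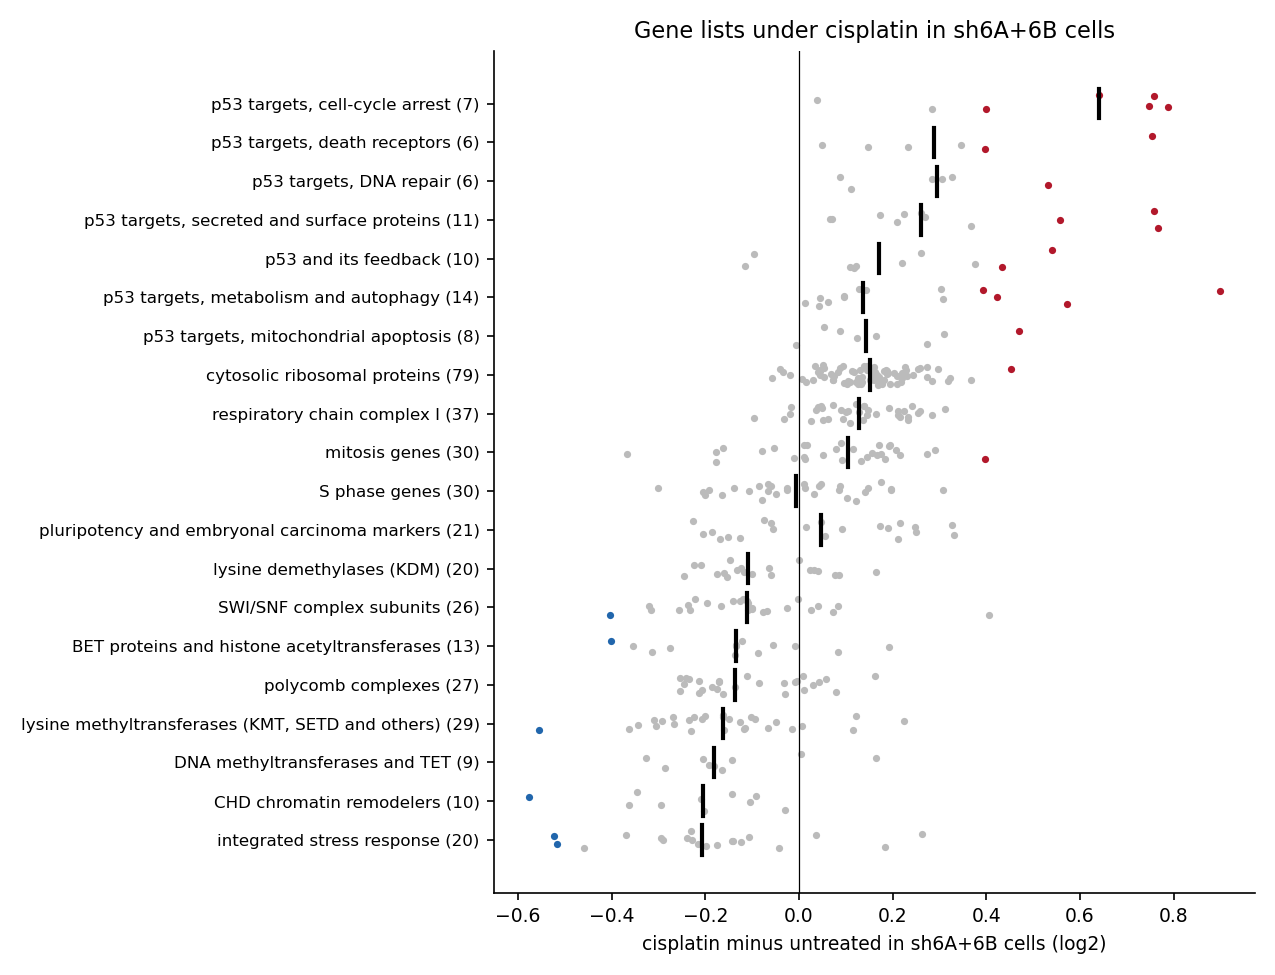
Change under cisplatin in sh6A + 6B cells (x axis, cisplatin minus untreated, log2) for the measured genes of each list (number in brackets), 1 point per gene with vertical scatter for legibility. Red and blue points passed the test as higher or lower, grey points did not, and black bars are list medians, which run from 0.64 for arrest targets to -0.21 for CHD remodelers and the integrated stress response.

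Transcript length moved with the change, and the lists above differ in length. Over 15222 genes with an annotated length, the 10% with the shortest transcripts (up to 1107 bases) had a median change of 0.08 and the 10% with the longest (from 7623 bases) of -0.10, with the median lower from each bin of 10% to the next. The longest 10% held 44 of the genes that fell and 9 of those that rose, and the shortest 10% held 10 and 49. GC content moved with it as well, from 0.07 in the 10% lowest in GC to -0.07 in the 10% highest, and in pLKO.1 cells from 0.05 to -0.06. In pLKO.1 cells cisplatin went with the opposite order of length, from -0.08 in the shortest 10% to 0.10 in the longest, and in untransduced cells the medians ran from -0.04 to 0.04. The read share of the longest 10% was 12.1% to 12.2% in untreated and 11.2% to 11.6% in treated sh6A + 6B libraries, and 11.96% to 11.99% untreated and 12.98% to 13.09% treated in pLKO.1 libraries. The part of this pattern in any gene's change was not tested beyond the alternative that removes a smooth trend with length and GC.

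**Figure D4:**
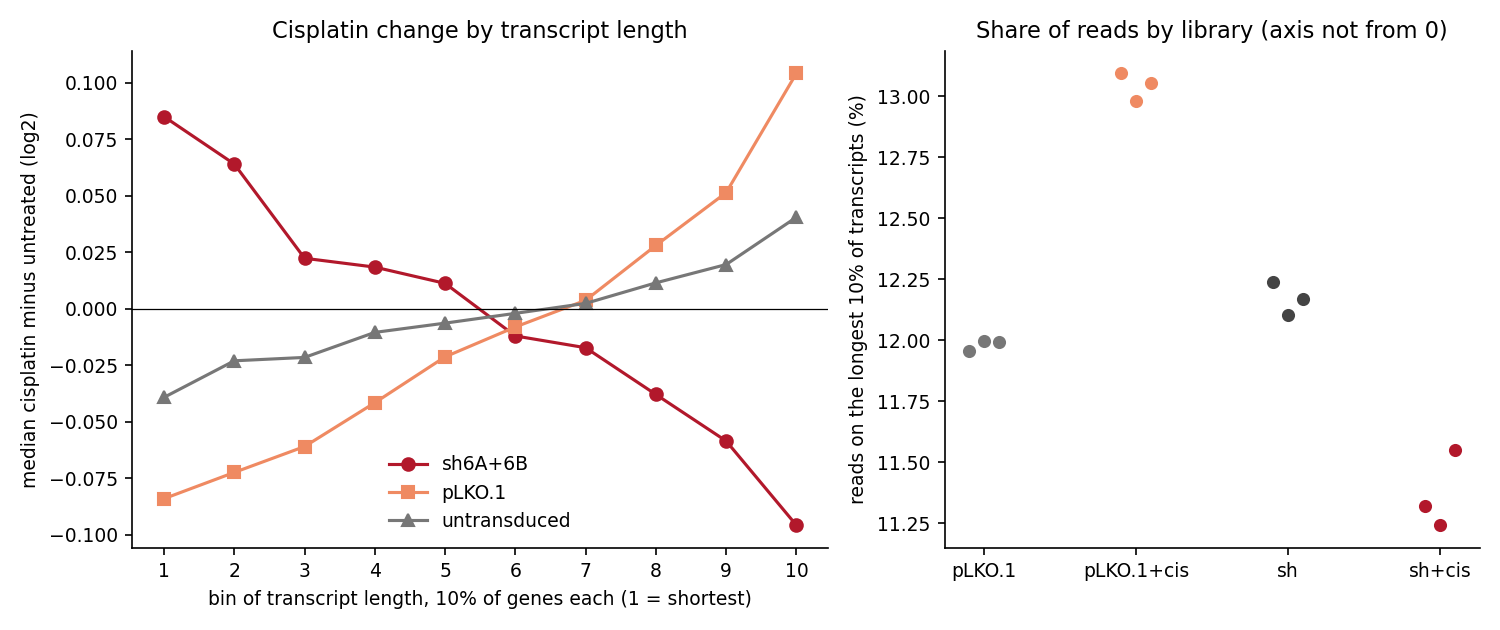
Left, median change under cisplatin (log2) in 10 bins of transcript length with equal numbers of genes, from shortest to longest, in sh6A + 6B, pLKO.1 and untransduced cells; right, percent of reads on the longest 10% in each pLKO.1 and sh6A + 6B library (axis not from 0). The sh6A + 6B line descends from 0.08 to -0.10 while the pLKO.1 line climbs from -0.08 to 0.10, and the sh6A + 6B libraries with cisplatin hold the smallest share.

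Chromatin genes had a median transcript length of 5317 bases against 3228 over all genes, and their median change was -0.07 with the trend removed, when 1 gene was called lower and 88 were lower and 18 higher at the adjusted p alone. Over the 15222 genes of that fit 3589 were lower and 2965 higher at the adjusted p alone. In pLKO.1 cells, with the trend removed, the chromatin median was -0.05. There 65 chromatin genes were lower and 13 higher, against 3709 and 2094 of the 15222 genes. KMT2D has 20635 bases, CHD7 11606, CREBBP 10790 and ARID1A 8595. The p53 genes had a median of 2915 bases. Cytosolic ribosomal proteins, with a median of 785 bases, lay on the other side. Of their 79 genes 75 were higher after cisplatin, with a median of 0.15 that was 0.07 with the trend removed, and 1 rose, RPS3A, from 9.24, 9.15 and 9.20 to 9.59, 9.74 and 9.62 (0.45 ± 0.05; 0.30 and under the limit with the trend removed). Their share of reads went from between 4.07% and 4.21% to between 4.54% and 4.72%. The 37 nuclear genes of respiratory complex I, with a median of 691 bases, had a median change of 0.13 and none was called, with NDUFA9 at 0.28 and NDUFB5 at 0.25.

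Transcripts of the mitochondrial genome went down in the same cells. All 13 mitochondrially encoded genes were lower after cisplatin, with a median of -0.14, and 11 passed the adjusted p, none with the fold limit. ND5, a complex I subunit, went from 9.82, 9.84 and 9.75 log2 CPM to 9.57, 9.47 and 9.59 (-0.25 ± 0.03), and ND4 from 11.65, 11.66 and 11.64 to 11.48, 11.43 and 11.50 (-0.18 ± 0.02). Their share of reads was 1.27% to 1.29% in untreated and 1.13% to 1.17% in treated libraries, without overlap. In pLKO.1 cells all 13 were higher instead, with a median of 0.26. There the share was 0.98% to 0.99% untreated and 1.14% to 1.22% treated. In untransduced cells all 13 fell, with a median of -0.46.

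The cell cycle lists held few calls. Of 30 mitosis genes 1 rose, CDK1 (6.44, 6.32 and 6.38 to 6.80, 6.76 and 6.76, or 0.40 ± 0.03), which was under the limit without untreated replicate 2 (0.37) and with the length and GC trend removed (0.24). CCNB1, the cyclin partner of CDK1, was at 0.29 and MAD2L1 at 0.27, whereas MKI67 was at -0.37. None of 30 S phase genes was called, although TYMS, thymidylate synthase, was at 0.31 and E2F2 at -0.30. Of 28 replication-dependent histones none was called, with a median of -0.08, H2BC12 at -0.25 and H1-2 at -0.13. None of 31 crosslink and excision repair genes or of 20 genes of cisplatin uptake, export and detoxification was called either, and at the adjusted p alone 6 and 4 of them were higher and 7 and 6 lower. Past the adjusted p and under the fold limit were UBE2T, the ubiquitin-conjugating enzyme of the Fanconi pathway, at 0.26, the nuclease scaffold SLX4 at -0.30, GSS at 0.16 and the exporter ABCC1 at -0.15.

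Signals outside the p53 lists were scattered. Of 19 interferon-stimulated genes TRIM22 rose by 0.46 ± 0.04 and ISG15 by 0.39 ± 0.08, the latter at 1.55, 1.79 and 1.96 in untreated cells and under the limit without untreated replicate 1 (0.28) and with the length and GC trend removed (0.37). The AP-1 subunit FOSL1 rose by 0.46 ± 0.06, 1 of 16 immediate early genes, while JUN (0.01) and FOS (-0.07) did not pass. ANXA1, an annexin, went from 6.01, 6.00 and 6.02 to 6.67, 6.63 and 6.65 (0.64 ± 0.02). In the hypoxia list ANKRD1 rose by 0.41 ± 0.12 from 83 to 97 reads per library, and was under the limit without cisplatin replicate 1 (0.36) or untreated replicate 2 (0.38), and at 0.29 (adjusted p = 0.0621) with the length and GC trend removed it did not pass the test. None of 19 cholesterol synthesis genes (FDFT1 at 0.25), 12 NRF2 genes (NQO1 0.21, TXN 0.11) or 10 NF-kB genes (NFKB2 -0.21, NFKB1 -0.19) was called.

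Identity markers stayed within the fold limit. None of the 21 measured pluripotency and embryonal carcinoma markers was called: POU5F1 was at 0.01 ± 0.02, NANOG at 0.05, SOX2 at -0.07, GDF3 at 0.22 and L1TD1 at -0.23. Among markers of other cells, none was called in the seminoma (6 of 8 measured), yolk sac (2 of 7), trophoblast (3 of 8), neural (4 of 7), mesoderm and endoderm (4 of 8), testis somatic (3 of 7) or immune and endothelial (5 of 8) lists. AFP, CGA, PAX6, SOX17, PTPRC and CD3E, which define several of these cells, were not in the table. NES was at -0.30 ± 0.02, APOB at -0.33 ± 0.04, MIXL1 at -0.26 and CDH5 at 0.33 ± 0.04, and the remaining members named by the selection rule were TFAP2C (0.11), KIT (-0.12), GPC3 (0.02), HAND1 (-0.22), KRT7 (0.20), TUBB3 (0.20), GATA4 (-0.32), STAR (-0.12), ACTG2 (0.06) and PECAM1 (0.07). With the length and GC trend removed CDH5 was called higher, at 0.40. It was also called higher in pLKO.1 and in untransduced cells, at 0.43 in each. Of 28 collagen, laminin and adhesion genes none was called, with COL4A2 at -0.30 and LAMB1 at -0.23. In the muscle list ACTA2 and desmin (DES, 0.40 ± 0.09) rose, DES falling under the limit without untreated replicate 2 (0.36) or cisplatin replicate 3 (0.35), and TTN fell.

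The pLKO.1 cells, which share no library with the knockdown cells, gave 417 genes that rose (2.53%) and 76 that fell (0.462%). Of the rises, 153 were common to both lines, 37.5% of those in sh6A + 6B and 36.7% of those in pLKO.1 cells, and 1 gene was called in opposite directions. Of the falls 13 were common, 7.60% of those in sh6A + 6B and 17.1% of those in pLKO.1 cells, and 4 genes that fell in the knockdown cells rose in pLKO.1 cells. Genes that rose in sh6A + 6B cells had a median of 0.31 in pLKO.1 cells, and those that fell had a median of -0.08 there. Over all 16459 genes the changes had a Pearson correlation of 0.30, and 0.44 over 15222 genes with the length and GC trend removed from each, given as a description since the genes of a library share its depth and composition.

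A test of the difference itself called 620 genes (3.77%), 180 (1.09%) with the more positive change in sh6A + 6B cells and 440 (2.67%) with the more negative, and 5785 (35.1%) passed the adjusted p alone. With the length and GC trend removed the count was 240, 95 more positive and 145 more negative, so 39.6% in place of 29.0% lay on the positive side. Among the longest 10% of transcripts 234 genes were called more negative and 0 more positive.

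**Figure D5:**
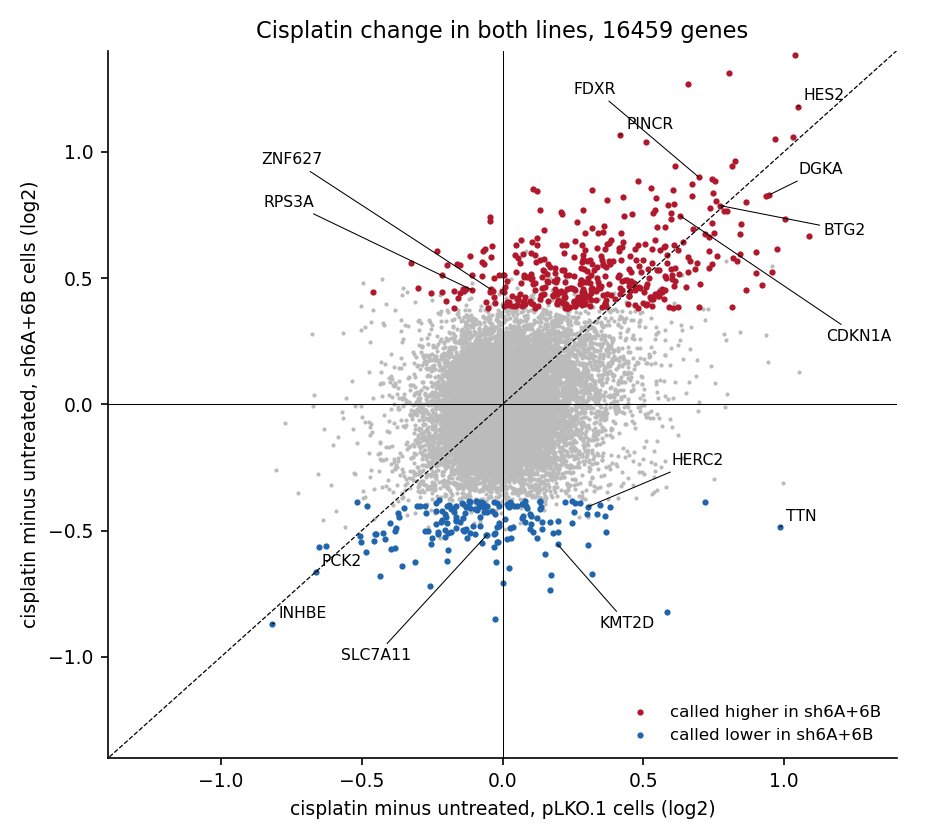
Change under cisplatin in sh6A + 6B cells (y axis, log2) against the change in pLKO.1 cells (x axis, log2), 1 point per gene for 16459 genes, with genes called in sh6A + 6B cells in red (higher) and blue (lower) and the dashed line marking equal change. Most red points, such as HES2 and FDXR, also lie to the right of 0, while blue points sit around 0 on the x axis and TTN lies far to the right at 0.99.

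Genes of the p53 pathway rose in both lines. The 62 p53 genes had a median of 0.26 in sh6A + 6B and 0.25 in pLKO.1 cells, where 16 rose, and 1 gene, GPX1, was called as different, more positive in the knockdown cells by 0.42. With the length and GC trend removed 0 of the 62 genes were called as different, so GPX1 lost its call. CDKN1A was at 0.75 and 0.63, a difference of 0.12 ± 0.05 (adjusted p = 0.0588), BTG2 at 0.79 and 0.77 (difference 0.02 ± 0.06, adjusted p = 0.869) and KITLG at 0.56 and 0.69 (difference -0.13 ± 0.07, adjusted p = 0.129). Several targets had a larger change in the knockdown cells at the adjusted p, without reaching the fold limit for a difference. FAS differed by 0.29 ± 0.08 (adjusted p = 0.00517), SFN by 0.26 ± 0.08 (0.0168), PLK2 by 0.23 ± 0.04 (4.21e-05), DDB2 by 0.20 ± 0.04 (0.000264), FDXR by 0.20 ± 0.05 (0.0011) and SESN1 by 0.16 ± 0.03 (0.000125). With the length and GC trend removed SFN differed by 0.18 and did not pass (adjusted p = 0.0922), while FAS, PLK2, DDB2, FDXR and SESN1 did. Other targets had the smaller change in the knockdown cells, with LIF differing by -0.32 (adjusted p = 0.00739), E2F7 by -0.20, ASCC3 by -0.19, PLXNB2 by -0.18 and ZMAT3 by -0.18. Over the list 14 genes were more positive and 8 more negative at the adjusted p alone, against 17.2% and 18.0% of all genes. With the trend removed 16 were more positive and 5 more negative, against 2466 and 1953 of 15222 genes. Outside the list, PINCR differed by 0.65 ± 0.13 (adjusted p = 0.000203), with 0.42 in pLKO.1 cells, whereas HES2 (1.05 in pLKO.1 cells) and DGKA (0.95) did not pass.

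Falls that both lines shared stood beside falls that differed. INHBE was at -0.87 in sh6A + 6B and -0.82 in pLKO.1 cells, PCK2 at -0.66 in each and CHAC1 at -0.52 and -0.51, and none of these differences passed the test. SLC7A11 was at -0.52 and -0.05, a difference of -0.46 ± 0.05 (adjusted p = 3.66e-08; -0.31 with the trend removed). SLC38A1 differed by -0.30 ± 0.03 and SLC7A1 by -0.32 ± 0.03, past the adjusted p and under the fold limit. Before treatment sh6A + 6B minus pLKO.1 was 0.29 for SLC7A11, 0.31 for SLC38A1 and -0.02 for SLC7A1. The integrated stress response list as a whole had medians of -0.21 and -0.17.

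The 5 most certain negative differences, among genes that were also called in sh6A + 6B cells, were in long transcripts. TTN, which encodes the giant muscle protein titin in a transcript of 109224 bases, went from 5.50, 5.45 and 5.44 to 4.89, 4.93 and 5.11 in sh6A + 6B cells (-0.49 ± 0.04) and rose by 0.99 ± 0.04 in pLKO.1 cells, a difference of -1.47 ± 0.06 (adjusted p = 1.86e-14). KMT2D differed by -0.75 ± 0.04, the ubiquitin ligase HERC2 (15364 bases) by -0.71 ± 0.03, the ubiquitin ligase RNF213 (21079 bases) by -0.65 ± 0.03 and CREBBP by -0.42 ± 0.03. With the trend removed these differences were -0.64 for TTN, -0.31 for KMT2D, -0.36 for HERC2, -0.22 for RNF213 and -0.15 for CREBBP, and TTN, HERC2 and RNF213 were then at -0.21, -0.21 and -0.18 in sh6A + 6B cells, under the fold limit. RNF213 was also under it without cisplatin replicate 1 (-0.37). ZSWIM9 (3600 bases) differed by -0.65 (-0.58 with the trend removed) and RPS3A (869 bases) by 0.56 (0.37 with the trend removed). The bin of 10% by length that holds ZSWIM9 had 3 more positive and 12 more negative calls, and the shortest 10%, which holds RPS3A, had 81 and 14. The difference in CHD7 was -0.38 ± 0.08, and with the trend removed it was -0.13 and did not pass (adjusted p = 0.252). Untreated CHD7 was higher in sh6A + 6B than in pLKO.1 cells by 0.78, and untreated TTN by 0.86. After cisplatin CHD7 averaged 2.53 in sh6A + 6B and 2.13 in pLKO.1 cells. KMT2D (-0.16), RNF213 (-0.20) and CREBBP (-0.09) were lower in sh6A + 6B cells before treatment, and HERC2 was at 0.07. What these starting levels contributed to the differences was not tested. Over the chromatin lists 14 genes were called more negative than in pLKO.1 cells and none more positive, with a median difference of -0.12, and with the trend removed 1 gene was called, with a median of -0.03.

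In the other direction, the 5 most certain differences among genes that were also called in sh6A + 6B cells were in transcripts of 1348 (RGS2) to 6324 bases (NTPCR). ZNF627, a zinc finger protein, went from 4.37, 4.39 and 4.44 to 4.88, 4.84 and 4.85 in sh6A + 6B cells and was at -0.04 in pLKO.1 cells, a difference of 0.50 ± 0.04 (adjusted p = 1.69e-09). NTPCR, a nucleoside triphosphatase, went from 5.51, 5.59 and 5.6 to 6.07, 6.08 and 6.05 (0.50 ± 0.02) and was at 0.10 in pLKO.1 cells, differing by 0.40 ± 0.03, although it overlaps PCNX2. STK17A, a death-associated kinase, at 0.53 and 0.21, HMMR, a mitotic spindle protein, at 0.39 and 0.07, and RGS2, a G protein regulator, at 0.46 and 0.15 differed by 0.31 to 0.32, under the fold limit for a difference. Before treatment sh6A + 6B minus pLKO.1 was -0.59 for ZNF627, -0.23 for HMMR, -0.16 for NTPCR, 0.01 for STK17A and 0.46 for RGS2. After cisplatin ZNF627 averaged 4.86 in sh6A + 6B and 4.95 in pLKO.1 cells. With the length and GC trend removed, ZNF627 differed by 0.43 and NTPCR by 0.51, while in sh6A + 6B cells HMMR (0.28) and RGS2 (0.32) came under the limit. HMMR was also under it without untreated replicate 2 or cisplatin replicate 1 (0.37 each). All 79 ribosomal protein genes had the more positive change in sh6A + 6B cells, 16 of them called, and all 13 mitochondrial genes the more negative, 8 of them called, with median differences of 0.28 and -0.40. In untreated cells sh6A + 6B minus pLKO.1 was -0.19 for RPS3A, 0.36 for ND5 and 0.35 for ND4. After cisplatin ND5 averaged 9.55 in sh6A + 6B and 9.64 in pLKO.1 cells, and ND4 11.47 and 11.55. With the length and GC trend removed 3 of the ribosomal protein genes were called and their median difference was 0.19, and the mitochondrial genes were not part of that fit.

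Untransduced 2102EP-C1 cells, in a table that was normalized separately, had 150 genes that rose (0.881%) and 32 that fell (0.188%) among 17035 tested (1.07% called). Values are set side by side without a test between tables, and those libraries were shallower, at 34816369 to 53645086 reads. FDXR was at 0.68, DGKA at 0.82, HES2 at 0.87, CDKN1A at 0.44, FAS at 0.53, GDF15 at 0.71 and EPS8L2 at 0.77, and the 61 p53 genes measured had a median of 0.23 with 16 rises. INHBE fell there too, at -0.59, while PCK2 (-0.28), SLC7A11 (-0.11), KMT2D (0.07), CHD7 (-0.03) and CREBBP (-0.01) did not pass. Over the chromatin lists the median was -0.02.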

How the data were processed

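Libraries were TruSeq Stranded mRNA read on an Illumina HiSeq. The authors trimmed reads with Trimmomatic (quality 28 at both ends, minimum length 30), aligned them to GRCh38.p14 with STAR, counted genes with featureCounts, removed genes not above 0.5 CPM in at least 2 samples and scaled by TMM. Versions and the strand setting are not given in the sources used here. The deposited values are log2 CPM with a prior count of 3, from which reads were recovered for every value and rounded to whole numbers. Of the 12790 values under 50 reads, 100% lay within 0.05 of a whole number before rounding, and larger values were rounded without this check. The recovered reads were used for depth, reads per gene, read shares, the comparison with counting alone, voom and the alternatives of scaling and prior count. Comparisons used limma 3.58.1 in R 4.3.3 with a mean-variance trend over all 12 knockdown-experiment libraries, a two-sided test and Benjamini-Hochberg adjustment over 16459 genes. A gene rose or fell at an adjusted p under 0.05 and a fold change over 1.3. Errors beside log2 changes are SEs with n = 3 per group. Because the files held log2 values and not counts, limma took the place of a count model. Transcript length and GC came from GENCODE canonical transcripts, and their trend was removed with a spline of 4 degrees of freedom. Scripts were tested on simulated data.

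Named genes were the 10 largest rises and 10 largest falls with a mean of at least 1 log2 CPM and no overlap between groups (loci without a proper name left out), up to 4 called genes per list or else the 2 with the smallest p, the genes the study names, the 5 genes called in sh6A + 6B cells (same level limit and naming) with the most certain difference from pLKO.1 cells each way, and KDM6A and KDM6B. Further list members are named for their roles, after their values were seen. The members and lists were chosen with earlier results of these data known. The NT2/D1-A4 libraries and those with GSK-J4 were not used here.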

Additional observations from a re-analysis of the deposited data

Results flagged for a closer look

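The cisplatin effect differed between sh6A + 6B and pLKO.1 cells, by the limma test of the difference itself, at 620 genes and at the following genes named in the report. Differences are sh6A + 6B minus pLKO.1 on the log2 scale. The more positive changes were in PINCR (0.65), RPS3A (0.56), ZNF627 (0.50), H1-2 (0.45, with -0.13 in sh6A + 6B and -0.58 in pLKO.1 cells) and NTPCR (0.40). The more negative changes were in TTN (-1.47), KMT2D (-0.75), HERC2 (-0.71), ZSWIM9 (-0.65), RNF213 (-0.65), APOB (-0.52), SLC7A11 (-0.46), DDR2 (-0.46), ND5 (-0.45), ND4 (-0.43), CREBBP (-0.42), NES (-0.42), COL4A2 (-0.41), HMGN5 (-0.39), ARID1A (-0.39) and CHD7 (-0.38). With the length and GC trend removed PINCR, ZNF627, NTPCR, TTN, ZSWIM9 and HMGN5 stayed past the fold limit. ND5 and ND4 were not part of that fit. The others were under the limit, among them H1-2 (0.33), NES (-0.28), APOB (-0.26), COL4A2 (-0.24) and ARID1A (-0.17), and CHD7 (-0.13) did not pass the test. Over all 16459 genes 440 calls were more negative and 180 more positive. Among the 15222 genes with a length, the longest 10% held 234 more negative calls and 0 more positive ones. Transcript length and the shares of ribosomal protein and mitochondrial reads moved with these differences. By GC content the median difference ran from 0.01 in the lowest 10% to -0.02 in the highest. The part of these properties in each difference was not tested beyond the removal of the length and GC trend.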

How the results depend on the processing

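For cisplatin in sh6A + 6B cells the 579 calls became 216 with a mean of at least 1 log2 CPM required, 873 at a fold over 1.2 with an adjusted p under 0.001, and 7369 with no fold limit. They numbered 559 to 617 under another scaling, a prior count of 0.5, voom, the 6 libraries alone or a replicate block (586), 450 with the length and GC trend removed, and 548 to 598 with 1 library left out. In pLKO.1 cells 493 became 186 with the level limit and 5946 with no fold limit, and 447 to 512 with 1 library left out. The 620 differences between the lines became 240 with the length and GC trend removed (242 with the block as well), 1201 at the stricter p and lower fold, 5785 with no fold limit and 567 to 693 with 1 library left out. In untransduced cells 182 became 272 with the 6 libraries compared alone. With 1 library left out it became 117 to 172, with 118 without untreated replicate 1 and 117 without cisplatin replicate 2.

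The labels do not say what a replicate number stands for, and the numbers were not taken to pair libraries. The correlations of their deviations from the group means over 12380 genes were 0.32, 0.33 and 0.09 in sh6A + 6B and -0.10, -0.01 and -0.06 in pLKO.1 cells, and the replicate block gave 586, 502, 636 and 174 calls in the order above. Of 105 named genes, 82 kept direction and call throughout, while 16 lost their call and 2 gained one under at least 1 setting. Those that reversed were TXN (-0.0815), GPC3 (-0.0345), EZH2 (-0.0136) and POU5F1 (-0.00400) with the length and GC trend removed, with or without the block, and STAR without cisplatin replicate 1 (0.00419, from -0.21 over the left-out libraries), and the cause was not tested. Of the 56 called genes 40 stayed called under every setting. Of 44 list medians 40 moved by more than the spread between replicates under at least 1 setting and 4 under none, and 6 changed sign, those of the BCL2 family, S phase, crosslink repair, muscle, seminoma and neural lists. Low counts limit the 266 rises and 94 falls below 1 log2 CPM, and with 3 libraries per group a change under the fold limit is measured but not called.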
